A study of Mus musculus with 12 samples.

Results

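The nuclear-coded genes of the mitochondrial respiratory chain were followed through RNASeq of T cells from mouse spleen. Members were all genes of the count table whose identifier mapped to a protein-coding gene of GRCm38 with a symbol that starts with Ndufa, Ndufb, Ndufc, Ndufs, Ndufv, Uqcr, Cox4, Cox5, Cox6, Cox7, Cox8 or Atp5, together with Sdha, Sdhb, Sdhc and Sdhd. This rule gave 93 of 49315 gene identifiers. It used names alone and no measured value. Of these members, 36 coded for subunits of complex I, 8 for assembly factors of complex I, 4 for complex II, 8 for complex III, 20 for complex IV and 16 for complex V, and the remaining member was Atp5s, a coupling factor of the ATP synthase. A count filter left 88 members for testing in each comparison, and the other 5, all isoforms of complex IV, were near or at 0 in every library.

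T cells were taken by magnetic negative selection from spleens of male mice, either wild-type (WT, C57BL/6) or lacking miR-214 in all cells (miR-214-/-). The mice were 12 weeks old when treatment began. Osmotic minipumps delivered either a sham solution or the vasoconstrictor peptide angiotensin II (Ang II) over 14 days, the latter at a daily dose of 490 ng/kg. Each of the 4 groups (WT sham, WT Ang II, miR-214-/- sham and miR-214-/- Ang II) held 3 mice with 1 library each. The deletion was global, so a difference by genotype need not arise in T cells. The miR-214 gene had 0 counts in all 12 libraries, WT included, so the deletion could not be checked in these counts. PolyA libraries are not made to capture such short RNAs. Total counts lay between 21126874 and 29605988 per library, and the members took between 0.578% and 0.748% of them.

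The respiratory chain passes electrons from NADH (through complex I) and succinate (through complex II) to complex III and then, by cytochrome c, to complex IV, which reduces oxygen. Complexes I, III and IV pump protons across the inner mitochondrial membrane, and complex V, the ATP synthase, uses the gradient to make ATP. Most subunits are coded in the nucleus and imported, while a small set is coded by mitochondrial DNA. Activated T cells are known to enlarge their mitochondria as they grow and divide.

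Markers of dividing cells and of some other blood cells moved with the groups. The summed level of 22 cell-cycle genes was between 975 and 1196 CPM (counts per 1000000 counts, TMM-scaled) in WT sham and between 2817 and 3697 CPM in WT Ang II. The 9 genes of neutrophils and their precursors summed to between 198 and 251 CPM in WT sham and between 1102 and 3292 CPM in WT Ang II, and 11 genes of red-cell precursors to between 385 and 590 CPM and between 1247 and 5799 CPM. In WT, 22 of 22 cell-cycle genes, 9 of 9 neutrophil genes and 6 of 11 red-cell genes were called higher after Ang II, and 11 of 12 T cell genes were called lower, with sums between 5116 and 5699 CPM in sham and between 3478 and 3960 CPM in Ang II. Other lists had fewer calls or none. None of 6 B cell genes, 4 NK cell genes and 8 macrophage and monocyte genes was called in WT. Their median log2 fold changes were -0.37, -0.73 and 0.62. Of 5 megakaryocyte genes 2 were called higher, with a median of 1.21. None of the markers in these lists was at 0 in all libraries. Within miR-214-/- Ang II the libraries differed: replicate 1 had a cell-cycle sum of 2977 CPM, against 1555 CPM in replicate 2 and 1660 CPM in replicate 3, and replicate 2 had a red-cell sum of 4732 CPM, against 758 and 665 CPM. In such bulk samples fewer cells of a type and less RNA per cell cannot be told apart. The part of these markers in the results for the respiratory chain was not tested.

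Levels of different genes were compared per length, as CPM per kb of the mean annotated protein-coding transcript, over all 12 libraries. By this length the most abundant member was Atp5b, the catalytic beta subunit of complex V, at 352 ± 52.2 CPM per kb (SD, n = 12), followed by Atp5a1, the alpha subunit, at 239 ± 20.9 CPM per kb. In complex IV the highest was Cox4i1, a structural subunit, at 267 ± 33.6 CPM per kb. Cox7a2l, described as a factor for supercomplexes of complexes III and IV, followed at 217 ± 40.1 CPM per kb. Among these 4, neighbours in order of level overlapped, since the libraries ranged from 273 to 451 CPM per kb for Atp5b, from 218 to 341 for Cox4i1, from 210 to 272 for Atp5a1 and from 152 to 308 for Cox7a2l. Complex III was led by Uqcrh, the hinge protein, at 218 ± 33.0 CPM per kb, and by Uqcrc1, a core protein, at 84.6 ± 9.19 CPM per kb. Complex II was led by Sdha, the flavoprotein that oxidises succinate (91.4 ± 4.28 CPM per kb), and Sdhb, the iron-sulfur subunit (69.5 ± 4.53 CPM per kb). In complex I the leading members, both accessory subunits, were Ndufa6 (111 ± 18.6 CPM per kb) and Ndufb11 (81.0 ± 11.5 CPM per kb). The assembly factors of complex I, which are not part of the finished enzyme, lay lower, led by Ndufaf8 at 18.5 ± 2.49 CPM per kb and Ndufaf2 at 11.1 ± 1.87 CPM per kb. The value of Ndufaf2 is uncertain, because 65.6% of its exon length lies opposite another gene and the strand setting of the counting was not stated. These orders depend on the length used. Per kb of all exons of a gene joined, a length tried after the data were seen, Atp5a1 was highest at 196 CPM per kb and Atp5b had 159. Complex IV was then led by Cox6a1 (165), Cox7a2l (162) and Cox8a (161), with Cox4i1 at 130 CPM per kb. In complex III Uqcrh still led, at 83.5, but Uqcrc1 (33.8) was below Uqcr10 (59.2), and in complex II Sdhd (53.0) was above Sdhb (35.4) and below Sdha (64.3). Ndufa6 stood behind Ndufb11, at 26.2 against 81.0 CPM per kb, and Ndufaf2, at 2.30, was the lowest of the 8 assembly factors, which Ndufaf8 still led at 13.4.

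**Figure D1:**
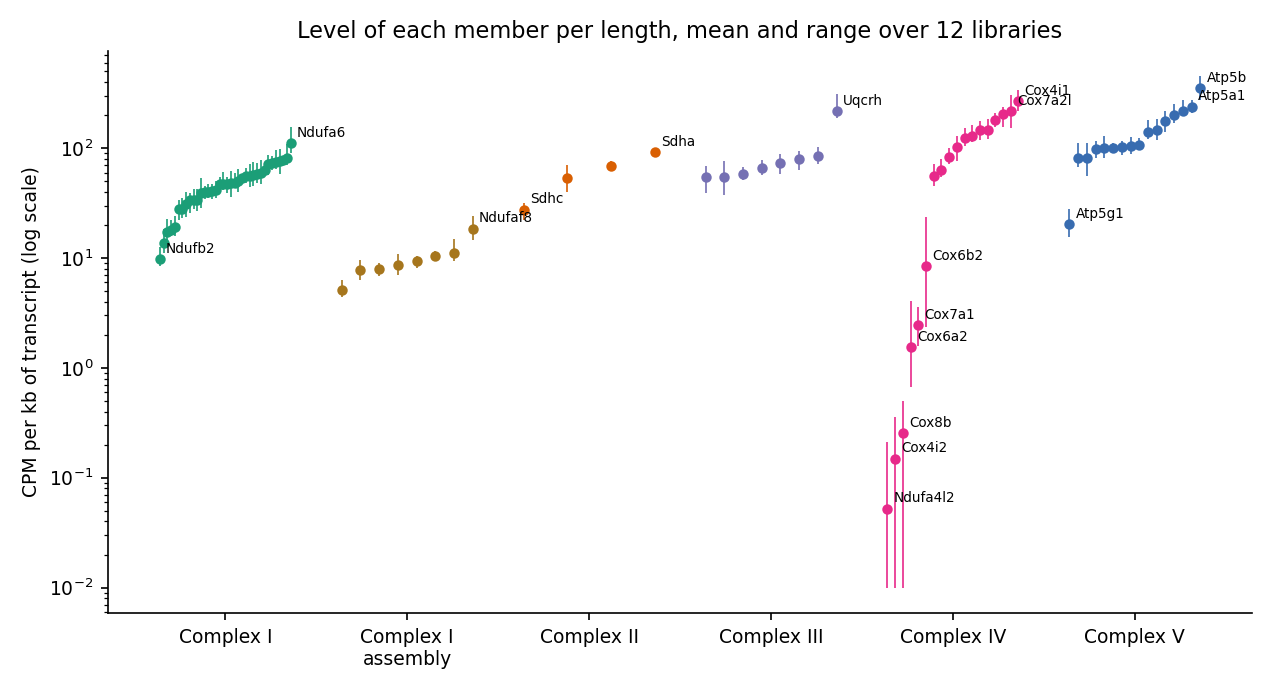
Level of each member per length (CPM per kb of transcript, log axis), grouped by complex; points are means and lines the range over 12 libraries, and a line that reaches the lower end of the axis stands for a library at 0. By this length Atp5b is highest at 352 CPM per kb (Atp5a1 is highest per kb of joined exons), and the tissue isoforms of complex IV lie far below both. Cox7b2 and Cox8c, at 0 in all libraries, and Atp5s, which is in no complex here, are not drawn.

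In paralogue sets of complex IV the counts showed which isoform was more abundant as mRNA in these bulk samples. Cox4i2, an isoform best known from lung, had 33 counts over 12 libraries, against 60715 for Cox4i1. Cox8b, a muscle isoform, had 28 counts against 30046 for Cox8a, and Ndufa4l2, a hypoxia-induced paralogue, had 15 counts against 21229 for Ndufa4. Cox8c and Cox7b2, both known from testis, were at 0 in every library, where 3 counts are the upper limit that a count of 0 allows for each library. The muscle isoforms Cox6a2 and Cox7a1 were detected at 321 counts each. Per length, Cox6a2 made up between 0.284% and 1.78% of the Cox6a pair and Cox7a1 between 0.402% and 1.25% of the Cox7a set. Cox4i1, Cox6a1, Cox8a and Ndufa4 each made up at least 98.2% of their set in every library. The Cox7a set was divided, with Cox7a2 at 18.7% to 31.7% and Cox7a2l at 67.4% to 80.4%. All these shares use the mean transcript length, which is the same for every library.

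Ang II against sham in WT mice gave small, mostly upward differences in respiratory chain mRNAs. Of 88 members tested, 73 had a positive log2 fold change, with a median of 0.18, beside a median of -0.02 over all 16012 genes tested, of which 48.4% were positive. By edgeR's quasi-likelihood test at an adjusted p under 0.05, 17 members were called, 16 higher and 1 lower. That is 19.3% of the members, and 18.8% of all genes were called in this comparison, so in this fit the share called was near the background. Split by direction, 18.2% of the members were called higher against a background of 11.7%, and Cox7a2l was the single member called lower against a background of 7.06%. With a log2 fold change beyond 1 in either direction as well, a rule that 7.30% of all genes met, only Cox6b2 was called. In 32 members all 3 WT Ang II libraries lay above all 3 sham libraries, as they did in 19.1% of all genes, and in 1 member (Cox7a2l) all lay below, as they did in 22.0% of all genes. The number of called members rested on single libraries, and the number over all genes, 3009 in the main fit, fell or rose in the same fits. Without WT sham replicate 1, 2 or 3 there were 1, 3 and 5 called members, beside 1139, 1587 and 1381 genes. Without WT Ang II replicate 1, 2 or 3 there were 25, 3 and 1 called members, beside 3590, 1893 and 946 genes. Sdhd was the only member called in all 6 of these fits. The median of the members stayed between 0.14 and 0.23 in them.

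Complex I had 6 of 36 subunits called, all higher, with a median log2 fold change of 0.17. Counts by complex, here and below, stand beside 18.8% of all genes called in WT and 11.7% called higher. For complex I the share called was near that background, and the other complexes have few members. Ndufc2 (GRCm38 chr7:97400003-97407802), an accessory subunit of the membrane arm, had 25.5, 27.7 and 28.9 CPM in the WT sham libraries and 34.1, 38.8 and 39.6 CPM in the WT Ang II libraries. The groups did not overlap, and the log2 fold change was 0.48 ± 0.10 (SE, adjusted p = 0.0191). Ndufb8, also an accessory subunit of the membrane arm, had 32.8, 37.3 and 36.0 CPM against 44.1, 49.2 and 47.1 CPM (0.43 ± 0.08, adjusted p = 0.0175). Ndufv1, the subunit that binds NADH and FMN, had 61.0, 71.3 and 71.4 CPM against 75.6, 99.9 and 93.9 CPM (0.42 ± 0.12, adjusted p = 0.0446). For Ndufb8 and Ndufv1 as well, the lowest Ang II library stood above the highest sham library. In Ndufc2, Ndufb8 and Ndufv1 alike, replicate 1 was the lowest of each group. WT sham replicate 1 was the lowest sham library for 66 of the 88 members tested. Of the 7 core subunits, which carry the flavin and iron-sulfur clusters, 3 were called (Ndufv1, Ndufv2 and Ndufs8), and their range ran from -0.04 for Ndufs7 to 0.42 for Ndufv1. Of the 13 accessory subunits with an Ndufa symbol, 1 was called (Ndufa10) and 7 were positive. None of the 8 assembly factors was called by edgeR or DESeq2, none had an unadjusted p under 0.05, and their log2 fold changes lay between -0.17 and 0.38.

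Complex II, the succinate dehydrogenase that also serves the citric acid cycle, had 1 of 4 subunits called. Sdhd (chr9:50596357-50603812), a membrane anchor that takes part in ubiquinone binding, had 49.4, 55.4 and 52.4 CPM in WT sham and 70.8, 86.7 and 74.2 CPM in WT Ang II. All Ang II libraries lay well above all sham libraries, and the log2 fold change of 0.58 ± 0.09 (adjusted p = 0.00808) was the largest among called members other than Cox6b2. The other anchor, Sdhc, had 44.6, 53.7 and 54.6 CPM against 57.0, 62.3 and 63.1 CPM (0.28 ± 0.10, adjusted p = 0.0847), so that the groups were separate but the call was not reached. Sdha and Sdhb, the catalytic pair, overlapped between groups, with log2 fold changes of 0.11 ± 0.07 (adjusted p = 0.321) and 0.12 ± 0.08 (adjusted p = 0.335).

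Complex III had 3 of 8 subunits called, with a median log2 fold change of 0.27. Uqcr11 (chr10:80402997-80406830), a small accessory subunit, had 19.5, 21 and 23 CPM in WT sham and 27.2, 33.8 and 28.2 CPM in WT Ang II, with no overlap (0.51 ± 0.12, adjusted p = 0.0269). The other called subunits were Uqcrc1, a core protein (0.34 ± 0.09, adjusted p = 0.0443), and Uqcrfs1, the Rieske iron-sulfur protein (0.29 ± 0.07, adjusted p = 0.0342). Uqcrh, the most abundant mRNA of the complex per length, was the only one with a negative value (-0.05 ± 0.06, adjusted p = 0.556).

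Complex V had 4 of 16 members called, and 15 were positive. Atp5b (chr10:128083273-128090391) had 524, 590 and 674 CPM in WT sham and 702, 865 and 831 CPM in WT Ang II (0.45 ± 0.12, adjusted p = 0.0422). Sham replicate 3 came within a small distance of Ang II replicate 1, yet the groups did not overlap. Atp5a1 rose by 0.28 ± 0.07 (adjusted p = 0.0400) and Atp5f1, subunit b of the peripheral stalk, by 0.38 ± 0.07 (adjusted p = 0.0140). The 3 genes of subunit c, which forms the rotating ring and is the same mature protein from each gene, differed among themselves. Atp5g3 had 101, 116 and 126 CPM in sham and 129, 158 and 156 CPM in Ang II (0.39 ± 0.11, adjusted p = 0.0478), Atp5g1 had a log2 fold change of 0.46 ± 0.13 (adjusted p = 0.0515), and Atp5g2 one of -0.00 ± 0.09 (adjusted p = 0.987). Per length, Atp5g2 made up 45.6% ± 0.917 of the set in WT sham and 38.9% ± 2.51 in WT Ang II (SD, n = 3), with no overlap between groups.

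Complex IV held both extremes. Cox6b2 (chr7:4751792-4753094), an isoform of Cox6b1 that is known from testis and sperm, had 26, 57 and 24 counts in WT sham and 112, 305 and 216 counts in WT Ang II, or 1.13, 2.26 and 1.09 CPM against 3.94, 10.9 and 9.15 CPM. The 3 Ang II libraries were all above the 3 sham libraries, with WT Ang II replicate 1 well below the other two, and the log2 fold change was 2.42 ± 0.46 (5.36-fold, adjusted p = 0.0159). Without WT sham replicate 1, WT sham replicate 3 or WT Ang II replicate 3 the adjusted p was between 0.0585 and 0.0675. Its ubiquitous partner Cox6b1 had a log2 fold change of 0.22 ± 0.08 (adjusted p = 0.0902), and per length Cox6b2 made up 2.27% ± 0.857 of the pair in WT sham and 9.62% ± 3.74 in WT Ang II. Over all groups, the libraries with the highest Cox6b2 were those with the highest cell-cycle sums: 10.9 and 9.15 CPM at sums of 3697 and 3696 CPM in WT Ang II replicates 2 and 3, 7.42 CPM at 2977 CPM in miR-214-/- Ang II replicate 1 and 3.94 CPM at 2817 CPM in WT Ang II replicate 1. The other 8 libraries had between 1.09 and 3.11 CPM of Cox6b2 at sums between 975 and 1815 CPM. Which cells carried these counts was not tested.

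Cox7a2l was the only member called lower. This gene (chr17:83501918-83517330) had 261, 239 and 265 CPM in WT sham and 209, 168 and 198 CPM in WT Ang II, with all Ang II libraries below all sham libraries (-0.39 ± 0.10, adjusted p = 0.0386). The call was lost in 1 fit over all groups (adjusted p = 0.0806) and, when single libraries were dropped, in 5 of 6 fits, with adjusted p between 0.0695 and 0.109. It held only without WT Ang II replicate 1 (adjusted p = 0.0194). Its paralogue Cox7a2, the subunit of the same family that sits in complex IV itself, had 38.9, 37.7 and 36.8 CPM against 42.1, 47.3 and 45.6 CPM (0.27 ± 0.08, adjusted p = 0.0502). Per length, Cox7a2l made up 79.4%, 78.3% and 80.4% of the Cox7a set in WT sham and 73.9%, 67.4% and 71.7% in WT Ang II. The share of Cox7a2l mRNA was thus lower in each Ang II library than in any sham library. Whether its protein joins complexes in these mice was not tested. In the same comparison the 12 T cell genes had a median log2 fold change of -0.50, and the part of this in the value of Cox7a2l was not tested. Cox5a, a matrix-side subunit, was the remaining call of the complex, with a log2 fold change of 0.33 ± 0.08 (adjusted p = 0.0365).

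**Figure D2:**
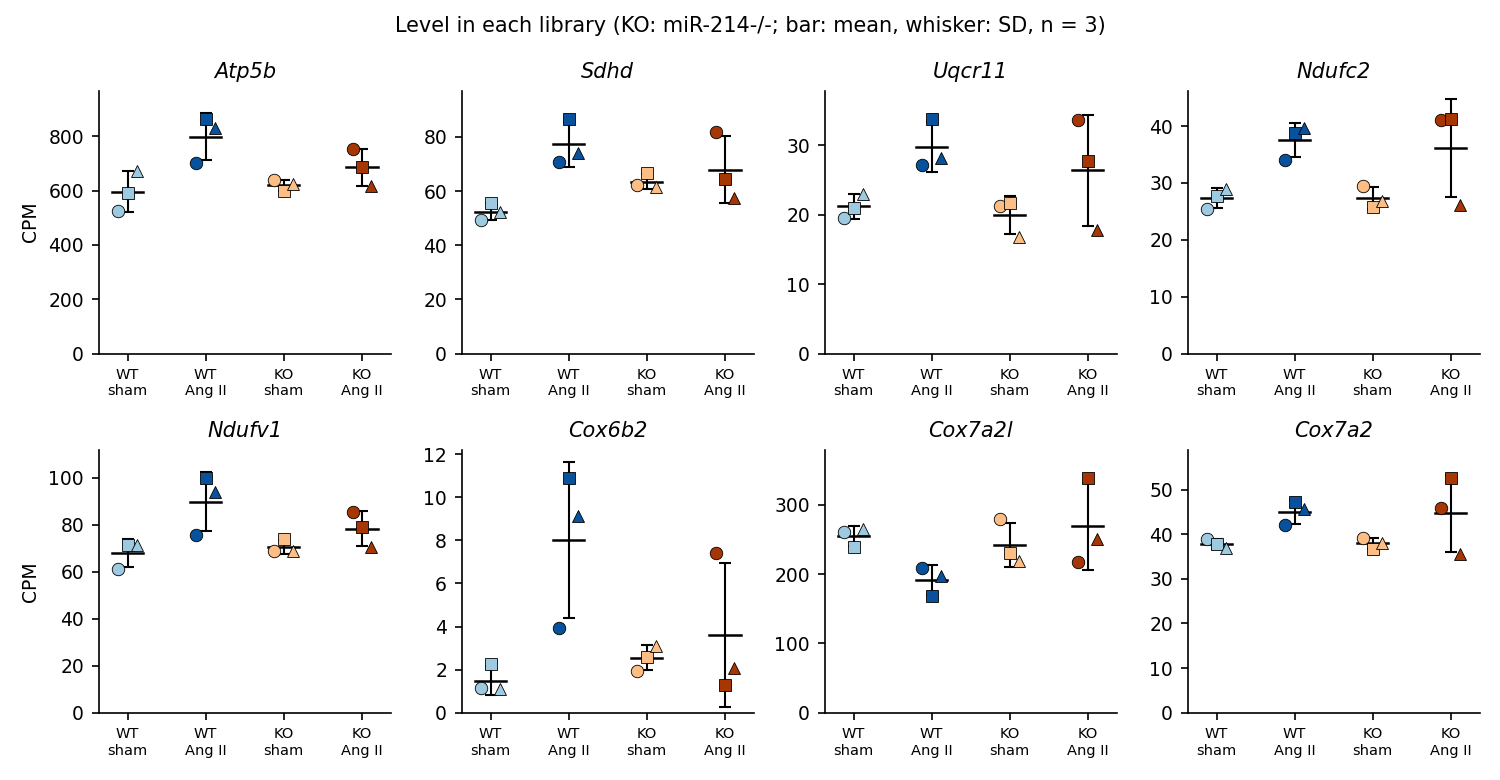
Level (CPM, axes from 0) of 8 members in each of the 12 libraries (KO, miR-214-/-); circles, squares and triangles mark replicates 1, 2 and 3, bars the group mean and whiskers the SD (n = 3). In WT the Ang II libraries of Cox6b2 (3.94 to 10.9 CPM) and Sdhd (70.8 to 86.7 CPM) lie above sham and those of Cox7a2l (168 to 209 CPM) below, while the miR-214-/- Ang II libraries are spread.

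In miR-214-/- mice Ang II against sham gave no called member. Of 88 members, 80 had a positive log2 fold change, with a median of 0.17 beside 0.03 over all 15937 genes tested. No gene of the table was called here by edgeR (background 0%), and by DESeq2 no member was called either, while 7 members had an unadjusted p under 0.05. The smallest p-values belonged to Cox5a (0.29 ± 0.07, adjusted p = 0.279), Atp5f1 (0.28 ± 0.08, adjusted p = 0.311) and Atp5c1, the gamma subunit that forms the rotor shaft (0.22 ± 0.08, adjusted p = 0.377). Cox5a had 46.6, 47.4 and 46.0 CPM in miR-214-/- sham and 59.5, 57.7 and 53.0 CPM in miR-214-/- Ang II, without overlap. In 10 members all Ang II libraries lay above all sham libraries (8.86% of all genes did), and in 2 members all lay below (10.5% of all genes did). The median of the members was between 0.10 and 0.28 when each library was left out in turn, with the highest value without Ang II replicate 3.

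The 3 miR-214-/- Ang II libraries differed from each other. In replicate 1, 80 of 88 members were above the miR-214-/- sham mean, in replicate 2 there were 78, and in replicate 3 there were 26. Replicate 3 had the lowest value of the group for 76 of 88 members. On the log2 scale the median difference of the members from the sham mean was 0.22 in replicate 1, 0.35 in replicate 2 and -0.07 in replicate 3. The same medians over the 15622 genes tested in both genotypes were 0.01, 0.01 and 0.00. Replicates 1 and 2 thus both stood high in most members, but the sizes of their differences were ordered differently across the members. Across the 88 members the difference of replicate 1 from the sham mean followed the WT fold change (Pearson's r = 0.708, Spearman's rho = 0.558), that of replicate 2 ran against it (r = -0.464, rho = -0.343), and that of replicate 3 did neither (r = -0.135, rho = 0.059). Over the 15622 genes tested in both genotypes the same r values were 0.646, 0.167 and -0.121. Cox6b2, at 2.42 in WT, 1.56 in replicate 1 and -0.94 in replicate 2, lay far from most members and so weighs more in r than in rho. These are correlations across genes that share libraries, and are given as descriptions without a test. Replicate 1 held 81.6 CPM of Sdhd, 7.42 CPM of Cox6b2 and 217 CPM of Cox7a2l, and replicate 2 held 64.6, 1.30 and 339 CPM. Of the 16 members called higher in WT, a set chosen on the WT libraries, replicate 1 was above the miR-214-/- sham mean in 16, replicate 2 in 14 and replicate 3 in 9. These counts stand beside the 80, 78 and 26 of all 88 members. Replicate 1 was also the library of this group with the high cell-cycle sum and replicate 2 that with the high red-cell sum. Replicate 2 was also highest in the sum of the neutrophil genes (2989 CPM against 1235 and 625 CPM) and of 6 B cell genes (410 CPM against 82.8 and 53.7 CPM). The part of any of these in the differences was not tested.

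**Figure D3:**
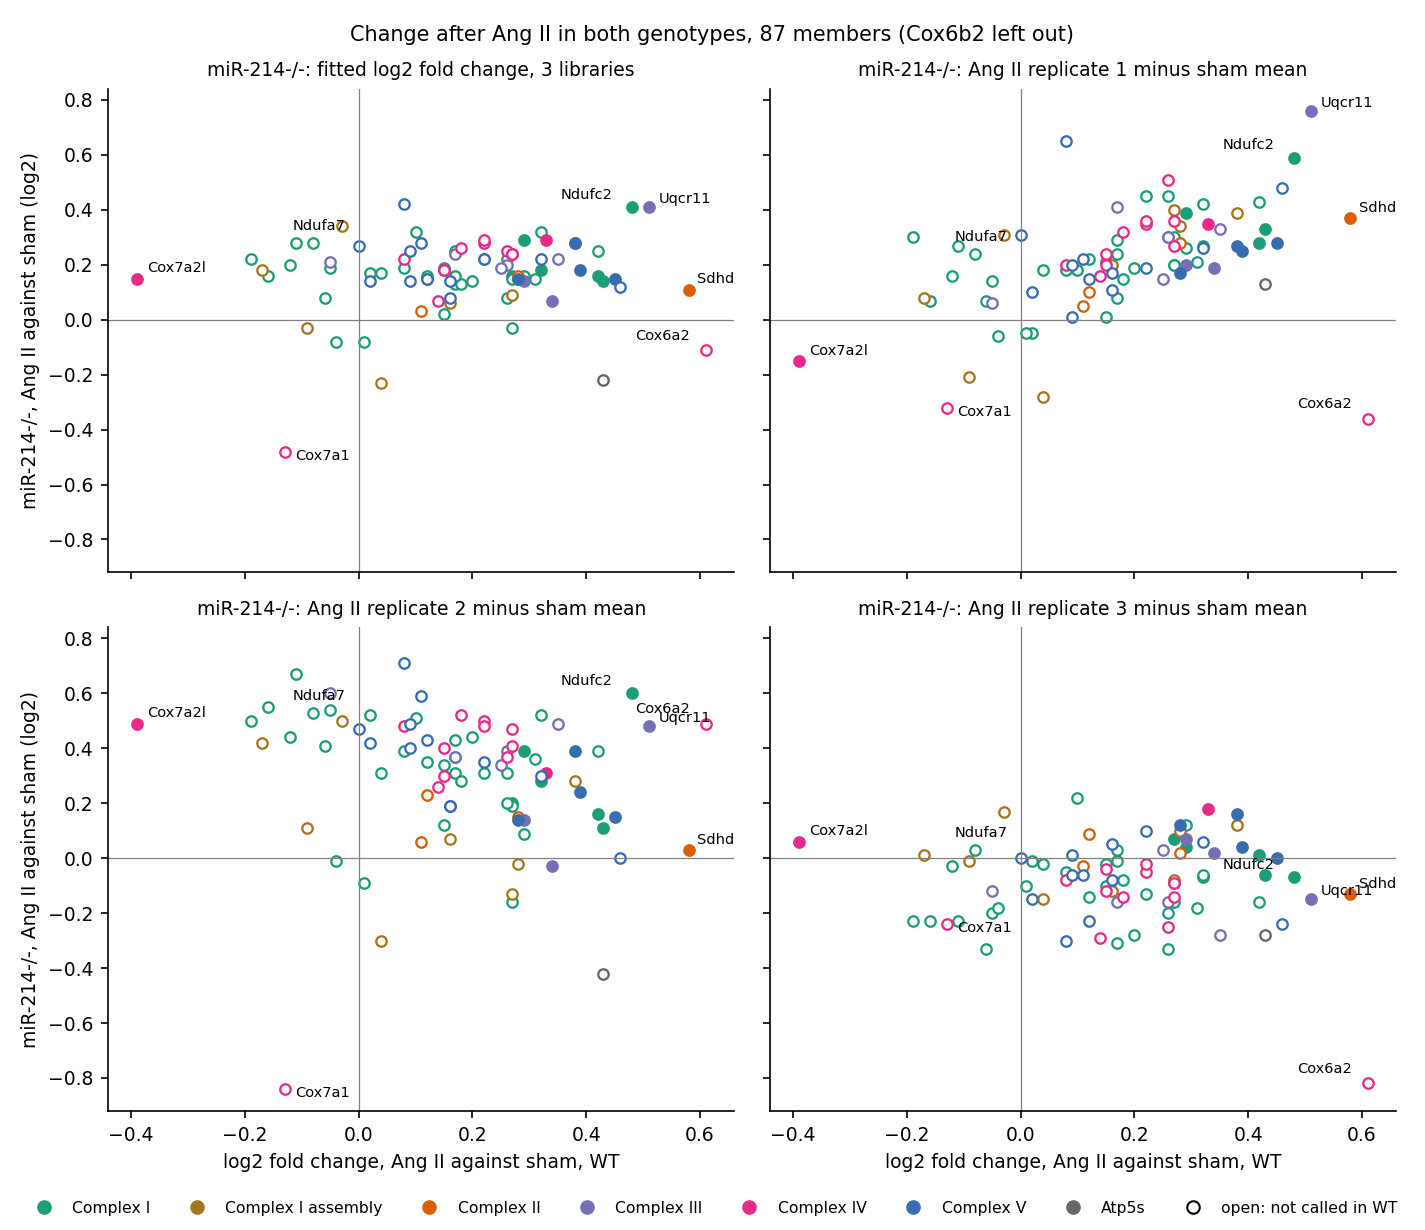
Log2 fold change of each tested member other than Cox6b2 after Ang II in WT (horizontal) against miR-214-/- (vertical), for the group fit and for each miR-214-/- Ang II library minus the sham mean; colours mark complexes and filled points members called in WT. Replicate 1 rises with the WT value (Spearman's rho = 0.558 over all 88 members, Cox6b2 included), replicate 2 falls with it (rho = -0.343), and replicate 3 lies about 0.

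By complex, the mean log2 CPM of the tested members minus the WT sham mean was between 0.14 and 0.33 in the WT Ang II libraries for complex III. The assembly factors of complex I had smaller values, between 0.04 and 0.13. For complex IV it was between 0.25 and 0.31, but without Cox6b2, left out after the data were seen, it was between 0.07 and 0.23, and the difference between the WT groups was 0.14 in place of 0.29. As log2 of the summed CPM per kb, where abundant genes weigh most, that difference was 0.11 for complex IV, 0.09 for complex I, 0.21 for complex II, 0.17 for complex III and 0.20 for complex V. In miR-214-/- Ang II each of the 5 complexes had a wider range over libraries than in WT Ang II, from -0.14 to 0.29 for complex I and from -0.07 to 0.30 for complex V. The sum of CPM per kb over all members was 6457 ± 429 under sham and 7133 ± 369 under Ang II in WT mice (SD, n = 3). In miR-214-/- mice it was 6260 ± 387 and 7088 ± 1010.

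**Figure D4:**
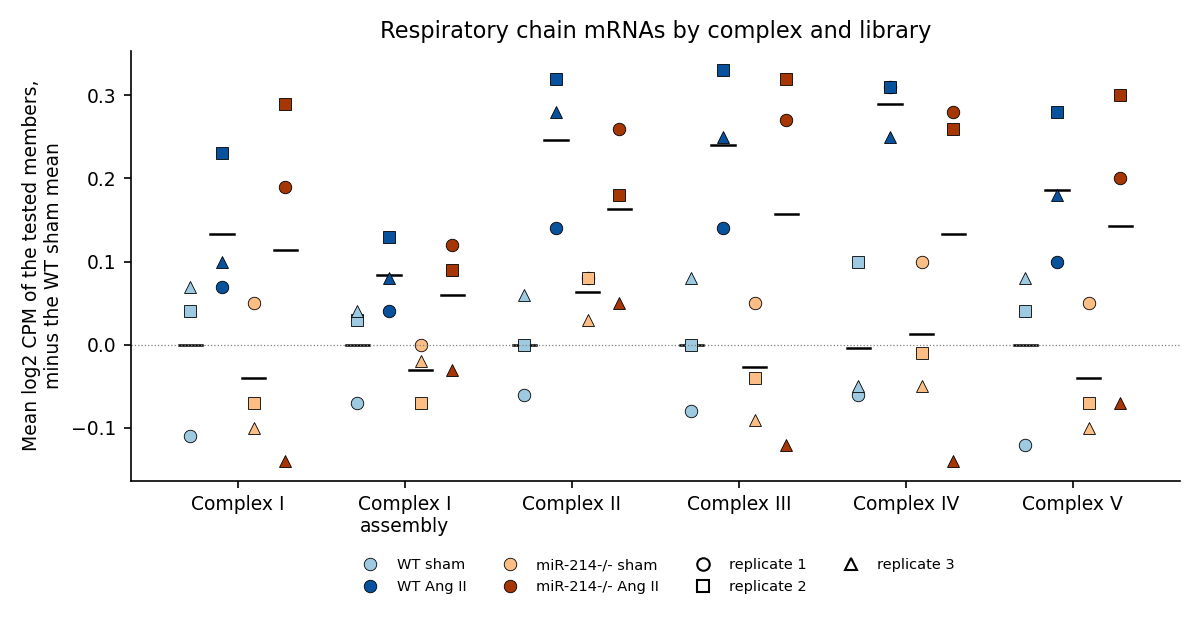
Mean log2 CPM of the tested members of each complex in each library, minus the mean of the WT sham libraries; black bars are group means and symbols mark replicates. WT Ang II libraries lie between 0.04 and 0.33, with Cox6b2 included in complex IV, and miR-214-/- Ang II replicate 3 lies between -0.14 and 0.05, below the other 2 libraries of its group.

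Genotypes were compared first without Ang II. Between miR-214-/- and WT sham mice no member was called (background 0.0251%), 3 members had an unadjusted p under 0.05, and DESeq2 called none. The median log2 fold change was -0.03, beside -0.01 over all genes. The smallest p belonged to Sdhd, which had 62.1, 66.5 and 61.4 CPM in miR-214-/- sham, above the 49.4, 55.4 and 52.4 CPM of WT sham (0.27 ± 0.07, adjusted p = 0.701). Ndufa13, an accessory subunit also known as GRIM-19, had 46.6, 41.1 and 39.4 CPM against 45.7, 53.3 and 58.9 CPM (-0.32 ± 0.11, adjusted p = 0.701), and Ndufa7 had a log2 fold change of -0.21 ± 0.09 (adjusted p = 0.740). Part of the exon length of Ndufa13 lies opposite Tssk6, which leaves its counts uncertain. In this comparison all 22 cell-cycle genes were positive, with a median of 0.71, none was called by edgeR, 21 had an unadjusted p under 0.05, and DESeq2 called 9. Their part in the value of Sdhd was not tested.

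Between miR-214-/- and WT mice that both received Ang II, no member was called (background 0%), 1 had an unadjusted p under 0.05, and DESeq2 called none. The median was -0.03, beside 0.00 over all genes. Cox7a2l had 217, 339 and 251 CPM in miR-214-/- Ang II, above the 209, 168 and 198 CPM of WT Ang II (0.49 ± 0.18, adjusted p = 0.569). Replicate 1, at 217 CPM, came close to the highest WT library. In this comparison all 12 T cell genes were positive, with a median of 0.40 and 9 at an unadjusted p under 0.05. All 22 cell-cycle genes were negative, with a median of -0.81 and 12 at an unadjusted p under 0.05. Neither edgeR nor DESeq2 called any gene of these 2 lists, and their part in the value of Cox7a2l was not tested. Ndufaf8 (0.30 ± 0.17, adjusted p = 0.584) and Ndufb8 (-0.22 ± 0.12, adjusted p = 0.584) overlapped between genotypes.

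The interaction tested whether the response to Ang II itself differed between genotypes. No member was called (background 0.00596%), 4 had an unadjusted p under 0.05, and DESeq2 called none. The median was -0.02, with 40 members positive and 48 negative, beside 0.01 over all 16770 genes tested. A negative value means a lower log2 fold change in miR-214-/- than in WT. The smallest p-values belonged to Sdhd (-0.46 ± 0.17, adjusted p = 0.268), Cox7a2l (0.56 ± 0.22, adjusted p = 0.283) and Ndufa7 (0.38 ± 0.17, adjusted p = 0.326). The largest estimates were those of Cox6b2 (-1.91 ± 0.85, adjusted p = 0.327), Cox6a2 (-0.71 ± 0.83, adjusted p = 0.698) and Atp5s (-0.63 ± 0.38, adjusted p = 0.445), all of low level. Without miR-214-/- Ang II replicate 1 there were 2 called members, Cox6b2 (-3.00 ± 0.64, adjusted p = 0.0305) and Sdhd (-0.61 ± 0.13, adjusted p = 0.0309), out of 88, and 919 of 17172 genes (5.35%) were called. No member was called when any of the other 11 libraries was left out. That library also held the highest cell-cycle sum of its group, and over the 22 cell-cycle genes the interaction had a median of -1.55, with none called by edgeR, 22 at an unadjusted p under 0.05 and 16 called by DESeq2. Their part in the interaction of the members was not tested.

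Genes that work beside the members were counted from lists of the same kind. Of 13 subunits coded by mitochondrial DNA, 10 were tested, none was called in any comparison by edgeR or DESeq2, none had an unadjusted p under 0.05, and their medians were -0.09 in WT and 0.34 in miR-214-/-, beside 0.18 and 0.17 for the nuclear-coded members. Their summed level was between 16347 and 19232 CPM in WT Ang II and between 16169 and 21269 CPM in WT sham, so that the WT Ang II range lay within that of sham. In miR-214-/- Ang II it was 16670, 27957 and 21085 CPM, so that replicate 2 stood highest of all libraries. The shares called in the lists that follow stand beside 11.7% of all genes called higher in WT. Of 12 electron carriers and further subunits, 1 of them also a member, 4 (33.3%) were called higher in WT, and Coq7, an enzyme of ubiquinone synthesis (0.89 ± 0.19, adjusted p = 0.0233), and Cycs, cytochrome c (0.52 ± 0.11, adjusted p = 0.0193), had the largest estimates. Of 13 enzymes of the citric acid cycle, 5 (38.5%) were called higher and 13 were positive, led by Fh1, fumarase (0.61 ± 0.08, adjusted p = 0.00437), and Idh3a, a subunit of isocitrate dehydrogenase (0.56 ± 0.13, adjusted p = 0.0285). Of 19 genes of mitochondrial import and the inner membrane, 3 (15.8%) were called, a share near the background, among them Vdac1, the outer membrane channel (0.74 ± 0.12, adjusted p = 0.0101), while the second largest estimate, that of the chaperonin Hspd1, was 0.52 ± 0.21 (adjusted p = 0.124). None of 34 tested assembly factors under other names was called in WT by edgeR or DESeq2, with a median of -0.03, and 5 had an unadjusted p under 0.05. In miR-214-/- none of 101 tested genes of these lists and of the transcriptional regulators was called by edgeR or DESeq2, and 9 had an unadjusted p under 0.05. The citric acid cycle list had a median of 0.11 there.

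Regulators of respiratory gene transcription were not called by edgeR in any comparison. Of 13 tested in WT, 2 had an unadjusted p under 0.05, DESeq2 called 1, and the median log2 fold change was -0.05. Ppargc1b, a coactivator of mitochondrial genes, had 16.5, 16.0 and 23.5 CPM in WT sham and 13.2, 12.9 and 10.8 CPM in WT Ang II (-0.58 ± 0.18, adjusted p = 0.0652). Its groups did not overlap, in the direction opposite to most members. The second largest estimate was that of Tfb1m, a mitochondrial ribosomal RNA methyltransferase, at 0.36 ± 0.18 (adjusted p = 0.211). Nrf1 and Gabpa, transcription factors whose sites are known from many respiratory chain promoters, had log2 fold changes of 0.02 ± 0.07 (adjusted p = 0.846) and 0.03 ± 0.06 (adjusted p = 0.704).

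Promoter sequences of RefSeq (GRCm38.p6) from 250 bases before to 50 bases after the start were at hand for 74 members. Letters of 4 known motifs were searched on both strands: CGCATGCG for NRF1, CCGGAAG for GABP, AAGATGGC for YY1 and CAAGGTCA for ESRRA. Matches of different motifs shared no bases. The NRF1 letters were found in 10 members (13.5%), against 1.91% of 27025 genes and 2.54% of 17492 protein-coding genes with such a window. The GABP letters were found in 17 members (23.0%), against 9.12% and 11.9%, the YY1 letters in 9 (12.2%), against 2.88% and 3.22%, and the ESRRA letters in 4 (5.41%), against 1.53% and 1.34%. Among 15 called members with a window, the NRF1 letters were in 2, the GABP letters in 3, the YY1 letters in 1 and the ESRRA letters in 2. The stretches below are those of the called members with the highest estimate in complexes II, III and IV and of the member that was lower, and run from 120 bases before to 30 bases after the start, all on the minus strand, with motif letters in capitals.
Sdhd, chr9:50603820-50603969: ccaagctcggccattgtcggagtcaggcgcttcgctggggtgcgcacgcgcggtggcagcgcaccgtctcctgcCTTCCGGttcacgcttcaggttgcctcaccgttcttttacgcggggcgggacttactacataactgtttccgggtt
Uqcr11, chr10:80406792-80406941: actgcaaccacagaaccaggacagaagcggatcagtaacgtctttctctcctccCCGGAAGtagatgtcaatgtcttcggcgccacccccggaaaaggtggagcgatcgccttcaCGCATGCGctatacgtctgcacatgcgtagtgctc
Cox6b2, chr7:4753065-4753214: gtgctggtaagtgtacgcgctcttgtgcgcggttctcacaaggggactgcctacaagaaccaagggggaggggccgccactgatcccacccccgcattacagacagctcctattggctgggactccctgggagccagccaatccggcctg
Cox7a2l, chr17:83514304-83514453: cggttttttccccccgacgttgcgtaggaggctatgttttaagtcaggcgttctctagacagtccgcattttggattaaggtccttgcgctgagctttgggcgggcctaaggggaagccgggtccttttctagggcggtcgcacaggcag
In Sdhd the GABP letters, on the opposite strand, begin at -46 from the start and the ESRRA letters at 37 after it, beyond the stretch printed, and in Uqcr11 the GABP letters begin at -66 and the NRF1 letters at -5. The windows of Cox6b2, the member with the largest rise in WT, and of Cox7a2l, the member that was lower, held none of the 4 motifs, as was so for 41 of the 74 members. Such matches are descriptions of the letters and do not show binding.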

How the data were processed

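RNASeq was done on splenic T cells of 12 mice. Per the labels and the study's methods, polyA stranded libraries were sequenced as paired ends, trimmed with Trimmomatic, mapped to GRCm38 with STAR and counted with featureCounts of Subread 1.5.2 over unique exonic reads. The authors deposited raw counts per gene for 12 libraries without normalization; the strand setting and annotation release are not given in the sources used here. Identifiers were matched to the GRCm38 annotation of GENCODE. Members, lists and the rule for named genes were chosen with earlier results of these data known.

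Counts were analysed with edgeR 4.0.16 in R 4.3.3: filterByExpr on the groups compared, TMM scaling, the quasi-likelihood test at its defaults and Benjamini-Hochberg adjustment over all genes tested. Calls needed an adjusted p below 0.05. The SE of a log2 fold change was derived from the F statistic. CPM were scaled by TMM over all 12 libraries, and log2 CPM used an added 0.5 counts. Level per length was CPM divided by the mean length of the basic protein-coding transcripts. Named genes were, in each comparison, all called members up to 12 or else the 8 with the largest change in each direction, the 3 smallest p where none was called, the 3 largest interaction estimates, paralogue sets, complex II, the catalytic core by range (not reported here as a whole), and the 2 highest per length in each complex. From other lists the 2 largest estimates were named. Nrf1 and Gabpa were named for their motifs, and called members outside the rule were named in counts of 5 or fewer, after their values were seen. Scripts were tested on simulated data. Alternatives were DESeq2 1.42.0, RLE scaling, library size alone, other filters, a replicate block, 1 fit over all groups and leaving out each library. Replicate libraries differed beyond counting noise (chi-square per degree of freedom 10.7 to 72.3). Same-numbered libraries did not deviate together in all pairs, so numbers were not taken as pairs. Total counts of 21126874 to 29605988 limit precision for members at a few counts. The upper limit given for a count of 0 covers counting error alone, while the SDs and SEs include the spread between libraries.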

Additional observations from a re-analysis of the deposited data

How the results depend on the processing

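In WT, 13 to 25 members were called under the alternatives that kept all libraries, and their median log2 fold change was between 0.16 and 0.22. All 17 members were called by DESeq2 too, which called 23 members and 3740 of 28524 genes. All but 2 were called with no filter, which called 16 members and 2861 of 28524 genes. Library size alone called 25 members and 2946 of 16012 genes, against 17 and 3009 in the main fit. Its share of members called thus stood further above the background. The fit over all groups went the other way, with 13 members and 3359 of 16770 genes. Library size alone raised the share of higher calls among all genes from 62.4% to 71.3%, and no filter raised it to 73.3%. Leaving out 1 library in turn gave 1 to 25 members and 946 to 3590 genes in WT, 0 to 1 genes in miR-214-/-, 0 to 35 genes between sham groups, 0 to 1 genes between Ang II groups, and 0 to 2 members and 0 to 919 genes for the interaction; the median of the members for the interaction then lay between -0.08 and 0.10, the latter without miR-214-/- Ang II replicate 3. Over all genes DESeq2 called 277 in miR-214-/-, 94 between sham groups, 33 between Ang II groups and 444 for the interaction, where edgeR called 0, 4, 0 and 1. Without a filter 5 were called in miR-214-/- and 9 between sham groups, and 1 fit over all groups called 0 between sham groups and 1 between Ang II groups. The interaction of Cox6a2 lay between -1.35 and 0.07 with 1 library left out, and turned in sign, to 0.07, without WT Ang II replicate 1. The causes were not tested. With the replicate number as a block, 15 members were called in WT, 13 of them among the 17, and 0 genes between sham groups; the correlation of deviations of same-numbered libraries was 0.184, 0.113 and -0.124 between the WT groups, and all 3 were negative between the miR-214-/- groups. Of 12 levels per length named, 11 moved by more than 1 SD with the length of joined exons, an alternative chosen after seeing the data, and that of Ndufb11 did not. Members at a few counts, such as Cox4i2, could not be compared at this depth. With 3 mice a group, p-values set each difference against the spread between these libraries.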

Other observations

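Members with short and with long transcripts stood apart in the 2 genotypes. Across the 88 members the WT log2 fold change had a Spearman's rho of 0.272 with transcript length, and the miR-214-/- log2 fold change one of -0.418, against -0.0504 and -0.145 over 12684 genes. Within miR-214-/- Ang II rho was -0.157 for the difference of replicate 1 from the sham mean, -0.552 for replicate 2 and 0.356 for replicate 3. The 40 members with a positive interaction had a median transcript length of 638 bases and the 48 with a negative one 1043 bases, beside 2702 bases over all genes tested. These are descriptions across genes of the same libraries, and whether RNA quality or library preparation had a part in them was not tested. Per the study's methods, RNA integrity was scored before sequencing, and the samples used lay in a narrow, high range of scores.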
